A study of Mus musculus with 3 samples.

Results

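The CXC chemokines are small secreted proteins in which a single residue separates the first pair of conserved cysteines. They were followed here as 9 genes, Cxcl1, Cxcl2, Cxcl3, Cxcl9, Cxcl10, Cxcl11, Cxcl13, Cxcl14 and Cxcl16, found by their exact names among the 36870 gene names on the arrays. They were measured by 13 of 56605 probes, 5 genes with 1 probe each and 4 with 2. The cells were RAW264.7, an established line of mouse macrophages, and were in every condition stimulated for 3 h with lipopolysaccharide (LPS), the bacterial component that activates the receptor TLR4. One array held macrophages given LPS alone, and the others held macrophages given LPS after treatment with Lactiplantibacillus plantarum LOC1 or LOC3, strains isolated from fresh tea leaves. The series design puts the time with lactobacilli before LPS at 12 h and the methods put it at 24 h, and the dose of LPS is 50 ng/mL in one place and 100 ng/mL in another. Each condition had 1 array, so differences between conditions have no SD and no p-value. The array of unchallenged macrophages was not analysed here, and values relative to it are the authors' deposited log2 ratios.

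Chemokines bind receptors on leukocytes and draw the cells toward their source. Cxcl1, Cxcl2 and Cxcl3 carry the ELR motif and attract neutrophils through Cxcr2, and TLR4 signalling through NF-kB is known to switch their genes on. Cxcl9, Cxcl10 and Cxcl11 lack that motif, bind Cxcr3 on activated T cells and NK cells, and are classical targets of interferons. Cxcl13 attracts B cells through Cxcr5, Cxcl16 is made as a membrane protein that binds Cxcr6, and Cxcl14 is made mainly by epithelia.

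The promoters of these genes are shown for the sites that each gene holds. RefSeq windows of GRCm38.p6 from 250 bases before to 50 bases after the transcript start were matched for 7 of the 9 genes. Cxcl11 and Cxcl16 had none. Both strands were searched for the NF-kB consensus, the ISRE core GAAANNGAA of interferon-stimulated genes, the GAS element TTCNNNGAA and the TATA box TATAAA. The stretch before the start is printed in the direction of transcription, with matches in capitals. Among the 32851 windows of all genes the NF-kB consensus was in 8.46%, the ISRE core in 8.56%, GAS in 8.30% and the TATA box in 13.6%. The neutrophil-attracting genes lie on the plus strand and the interferon-induced genes on the minus strand of the same chromosome.
Cxcl1, chr5:90891125-90891244: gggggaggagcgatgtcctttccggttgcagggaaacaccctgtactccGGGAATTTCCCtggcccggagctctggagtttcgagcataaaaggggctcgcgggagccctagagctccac
Cxcl2, chr5:90903779-90903898: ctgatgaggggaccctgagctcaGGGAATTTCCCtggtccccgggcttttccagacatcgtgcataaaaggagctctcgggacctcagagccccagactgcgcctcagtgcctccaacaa
Cxcl3, chr5:90785981-90786100: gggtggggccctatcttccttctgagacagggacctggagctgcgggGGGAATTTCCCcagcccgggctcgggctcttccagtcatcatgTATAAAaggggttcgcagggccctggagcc
Cxcl9, chr5:92328080-92328294: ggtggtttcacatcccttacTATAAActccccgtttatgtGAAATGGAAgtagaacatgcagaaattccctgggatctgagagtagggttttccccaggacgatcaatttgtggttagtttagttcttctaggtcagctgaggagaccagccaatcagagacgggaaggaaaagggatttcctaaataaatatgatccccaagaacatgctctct
Cxcl10, chr5:92348890-92349104: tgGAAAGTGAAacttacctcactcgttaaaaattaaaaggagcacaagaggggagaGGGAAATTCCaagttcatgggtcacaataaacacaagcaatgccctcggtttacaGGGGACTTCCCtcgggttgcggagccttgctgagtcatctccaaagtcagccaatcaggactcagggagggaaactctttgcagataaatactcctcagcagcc

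The neutrophil-attracting genes Cxcl1, Cxcl2 and Cxcl3 all held the same 11 letters, GGGAATTTCCC, which match the NF-kB consensus on both strands in overlapping positions. These began 71, 97 and 73 bases before the start, and Cxcl3 also had a TATA box 30 bases before it. The interferon-induced Cxcl9 had an ISRE core 175 bases and a TATA box 195 bases before the start, with no match to the NF-kB consensus in this window. Cxcl10 had both kinds, an ISRE core 213 bases before the start and NF-kB matches beginning 159, 104 and 103 bases before it, the last pair overlapping. Cxcl13 had a TATA box 46 bases before the start as its only match. Cxcl14 held an ISRE core 172 bases and a GAS element 191 bases before the start used for its window. That window, chr13:56296502-56296801, lies inside the annotated gene, whose outermost start on the minus strand is 56296811. A match describes the letters of the window and is not evidence of binding.

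**Figure D1:**
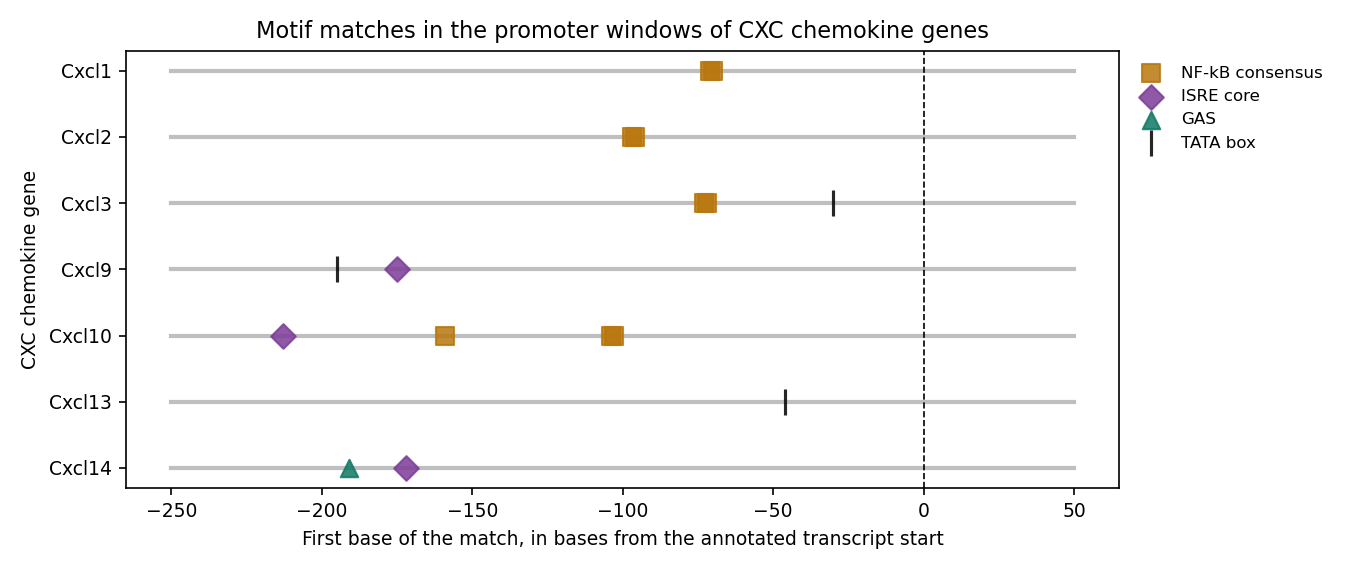
Motif matches on either strand in the RefSeq promoter windows of 7 CXC chemokine genes, placed by the first base of the match in bases from the annotated transcript start (dashed line). Grey lines are the searched windows. NF-kB matches begin between 70 and 97 bases before the start in Cxcl1, Cxcl2 and Cxcl3, and Cxcl10 holds NF-kB and ISRE matches together.

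Intensities are the deposited background-corrected signals, printed with the scanner software's own error, which covers the spot and not variation between cultures. Between arrays, the log2 intensity was compared after subtracting that of the array's 75th percentile, which was 555, 513 and 516 for the LPS, LOC1 and LOC3 arrays. The scanner software marks signals that are well above background, and this mark was set for 51.9%, 50.4% and 47.8% of probes in the same order, with no spot saturated. A signal without that mark has only an upper bound, and a fold change from it is written as at least N-fold, against the lowest signal with the mark on that array (16.3, 14.5 and 19.8) or the probe's own signal if higher. Probes printed 10 times on each array gave a technical SD of a log2 difference of 0.061 for bright and 0.29 for dim probes. A change was called at 2-fold, and 3 arrays limit the precision of every value. For the labelled cell type, 8 of 8 macrophage markers (Ptprc, Itgam, Adgre1, Cd68, Csf1r, Lyz2, Cd14 and Spi1) were well above background on every array, with summed intensities of 486400, 388251 and 421559. Of the markers of other cells, 1, 0 and 0 of 4 epithelial, 2 of 4 T cell, 2, 2 and 1 of 4 neutrophil and 2 of 3 fibroblast markers were well above background with LPS, LOC1 and LOC3, and Ly6g, S100a9 and Krt8 were not on any array. The brightest of those detected were Cd4 (895, 738 and 757), Cd3e (396, 416 and 451) and S100a8 (316, 263 and 276), and their part in the results was not tested.

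The first question was which CXC chemokines LPS itself had raised, as the base on which the lactobacilli acted. The authors' deposited ratios, which list a probe only where it differs at least 2-fold from unchallenged macrophages, gave 8 of the 13 probes as higher with LPS and 0 as lower. These probes belong to 7 of the 9 genes, all but Cxcl11 and Cxcl14. An unlisted probe has no known ratio here. Over all probes, 7.08% were listed as higher with LPS, and 10.3% of those well above background on the LPS array.

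Among the neutrophil-attracting members, Cxcl2 had a log2 ratio to unchallenged macrophages of 7.23 with LPS alone, and of 7.96 and 7.72 when LOC1 or LOC3 came before it. Its LPS ratio is 149.8-fold, and both treated ratios were larger. Cxcl1 had 3.32, 5.25 and 3.68, and Cxcl3 had 3.21, 1.70 and 2.28. Cxcl1 thus stood well above LPS alone with LOC1, and Cxcl3 was listed below it with both strains. For these dim genes the unchallenged signal that the ratio implies was below what the LPS array could tell from background, and against that limit LPS alone gives at least 2.21-fold for Cxcl1 and at least 1.72-fold for Cxcl3.

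Among the interferon-induced members, the brighter probe of Cxcl10 had log2 ratios of 10.47 under LPS alone, 10.58 after LOC1 and 10.66 after LOC3, and its LPS ratio is 1423-fold. The dimmer Cxcl10 probe had 10.51, 9.72 and 9.74, and its LPS ratio is at least 307-fold by the same limit. Cxcl9 had 6.18, 8.19 and 8.50, and for LPS alone the limit leaves a log2 ratio of at least 3.71. The dimmer Cxcl10 probe was lower in the treated macrophages, the brighter one differed little, and Cxcl9 was far above LPS alone with either strain.

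Of the other members, Cxcl13 had log2 ratios of 6.26 under LPS alone, 2.33 after LOC1 and 4.71 after LOC3, at least 15.5-fold with LPS alone. The listed probe of Cxcl16 had 2.09, 1.57 and 1.70, which is 4.25-fold for LPS. Both genes were lower in the treated macrophages than with LPS alone. Cxcl14 was listed only as lower than unchallenged macrophages, at -2.60 with LOC1 by one probe and at -2.11 with LOC3 by the other, each resting on a signal not well above background.

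**Figure D2:**
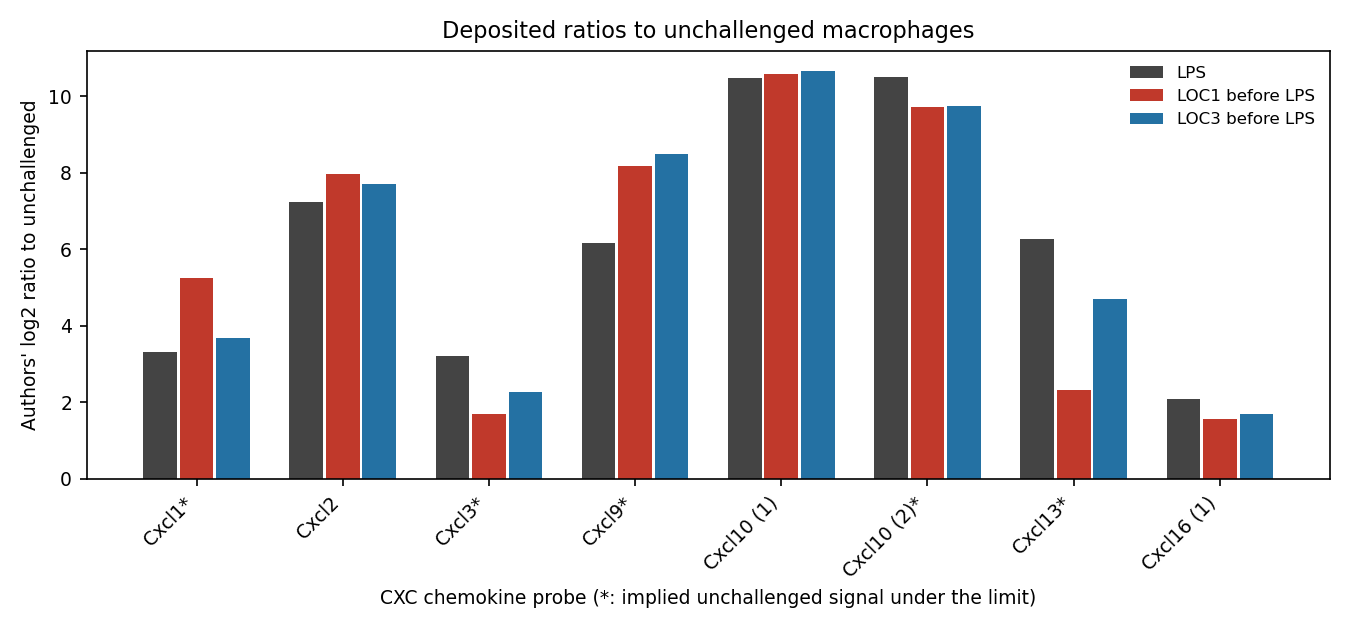
The authors' log2 ratio to unchallenged macrophages for the 8 CXC chemokine probes listed with LPS, as bars for LPS alone and for LOC1 or LOC3 before LPS. (1) and (2) are the brighter and dimmer probe of a gene, and an asterisk marks a probe whose unchallenged signal, as implied, fell below the limit. Bars of Cxcl9 and Cxcl1 stand higher with LOC1 than with LPS alone, and those of Cxcl13 and Cxcl3 lower.

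The second question was how treatment with LOC1 or LOC3 before LPS moved these genes relative to LPS alone. With LOC1, Cxcl9 and Cxcl1 were at least 2-fold higher and Cxcl13 at least 2-fold lower, and the other 6 members were not called. Among these, Cxcl3 had only a bound under 2-fold, at least 1.79-fold lower, and may differ by more. With normexp background correction its log2 difference was only -0.30. With LOC3, Cxcl9 was higher and Cxcl13 lower. All 9 genes could be compared in each case, by their brightest probe, which was well above background on all 3 arrays for 6 of them and gave a bound on at least 1 array for Cxcl3, Cxcl13 and Cxcl14. Of all genes that at least 1 array of the pair measured well above background, 2.49% of 20019 were higher and 3.81% lower with LOC1, and 2.98% of 19790 were higher and 3.18% lower with LOC3. The LOC1 and LOC3 differences share the LPS array and are not independent of each other. Scaling the arrays by their medians moved the median difference of all genes from 0.0015 to 0.22 with LOC1 and from 0.033 to 0.23 with LOC3. It turned 499 higher and 762 lower genes with LOC1 into 890 and 465, and 589 higher and 629 lower with LOC3 into 890 and 376, while quantile normalization gave 627 and 610 with LOC1 and 703 and 510 with LOC3. The members called were the same number under each scaling.

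**Figure D3:**
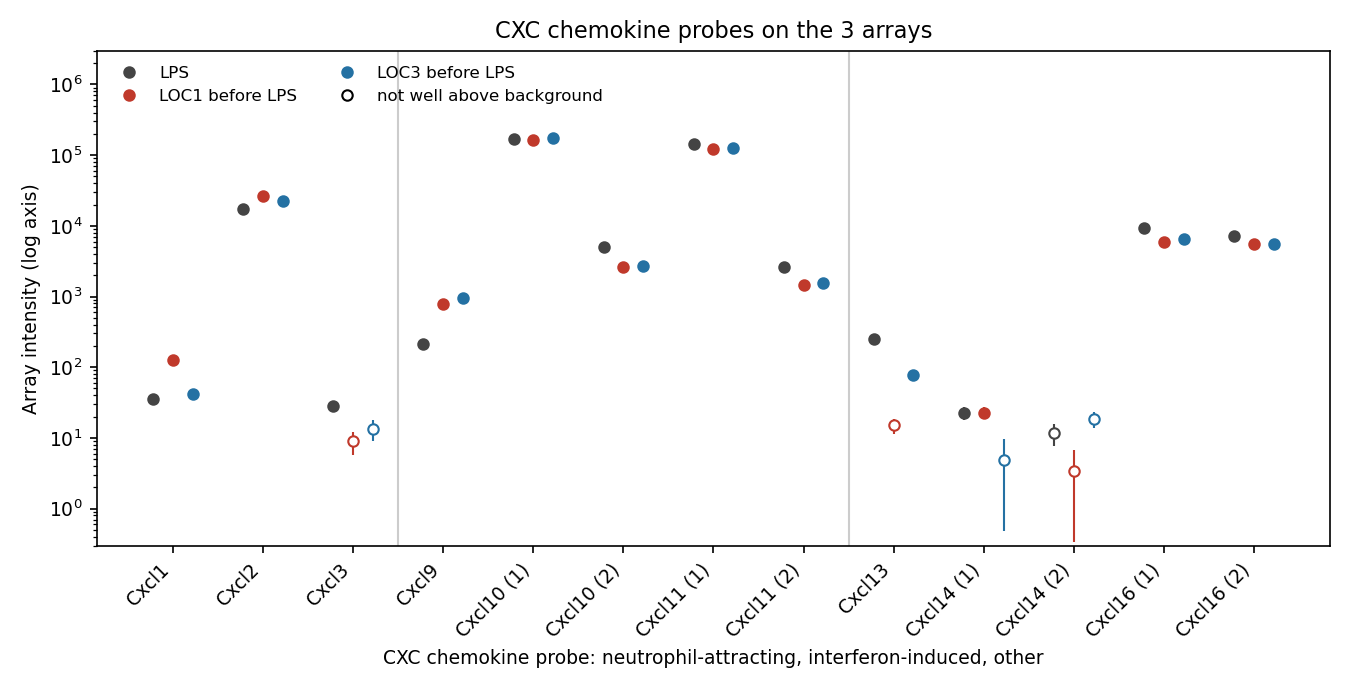
Intensity on a log axis of the 13 CXC chemokine probes on the 3 arrays, with the scanner software's error as bars, where visible. Open symbols are signals not well above background, and (1) and (2) are the brighter and dimmer probe of a gene. Cxcl9 is higher on both treated arrays, Cxcl1 on the LOC1 array, and Cxcl13 is lower on both.

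Cxcl1, a main neutrophil attractant of the mouse, had an intensity of 36.0 ± 5.29 under LPS alone, 124 ± 18.7 after LOC1 and 41.9 ± 6.30 after LOC3, at chr5:91322080-91322139 of mm9. The LOC1 array stood apart, and the errors of the other arrays overlap. The log2 difference from LPS was 1.90 with LOC1, or 3.73-fold, and 0.32 with LOC3, or 1.25-fold, each with a software error of 0.30. Of the genes compared, 118 had a larger difference with LOC1 than Cxcl1, and 3667 had a larger one with LOC3. The signals were dim, and with normexp background correction the LOC1 difference was 0.98, just under 2-fold. Since the RNA came from whole cultures, more cells expressing a gene and more RNA per cell cannot be told apart here or for any gene below.

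Cxcl2, a neutrophil attractant made by activated macrophages, had an intensity of 17516 ± 1752 under LPS alone, 26383 ± 2638 after LOC1 and 22328 ± 2233 after LOC3 (chr5:91334534-91334593, mm9). Both treated arrays were above LPS alone. The log2 difference was 0.70 with LOC1, or 1.63-fold, and 0.45 with LOC3, or 1.37-fold, with a software error of 0.20. These are over the technical SD of bright probes and under 2-fold.

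Cxcl3, a close relative of Cxcl1 and Cxcl2, had an intensity of 28.1 ± 4.44 under LPS alone, 8.95 ± 3.21 after LOC1 and 13.4 ± 4.30 after LOC3 (chr5:91216694-91216753, mm9). It was well above background with LPS alone and on neither treated array. The LOC1 signal was thus lower by at least 1.79-fold, and for LOC3 the bound was at least 1.32-fold. Taken as given, without the floor, the log2 differences were -1.54 and -0.97, with software errors of 0.57 and 0.52. With normexp background correction the differences were -0.30 and -0.17. With LOC1, Cxcl1 and Cxcl3 stood on opposite sides of LPS alone, both at dim signals.

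Cxcl9, the T cell attractant most tied to interferon-gamma, had an intensity of 213 ± 21.6 under LPS alone, 779 ± 77.9 after LOC1 and 968 ± 96.9 after LOC3 (chr5:92752191-92752250, mm9). Both treated arrays were far above LPS alone, LOC3 the more so. The log2 difference was 1.98 with LOC1, or 3.94-fold, and 2.28 with LOC3, or 4.87-fold, with a software error of 0.21. Only 103 and 128 genes had larger differences with LOC1 and LOC3. It was the only member at least 2-fold higher with both strains, and it remained above 2-fold in each alternative tried.

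Cxcl10, an interferon-induced chemokine and a major product of LPS-stimulated macrophages, was read by 2 probes that went apart. The brighter one, at chr5:92775781-92775840 of mm9, had an intensity of 170134 ± 17013 under LPS alone, 165808 ± 16581 after LOC1 and 175162 ± 17516 after LOC3. Its differences from LPS, 0.08 for LOC1 and 0.15 for LOC3 in log2, were within the software error of 0.20 and over the technical SD of 0.061. They turned to -0.03 and -0.02 under quantile normalization. The dimmer probe, listed under another transcript of the gene at chr5:92776616-92776675, had 5003 ± 500.3, 2610 ± 261 and 2669 ± 267. It was lower on both treated arrays, by a log2 difference of -0.83 with LOC1, or 1.77-fold, and -0.80 with LOC3, or 1.74-fold. Neither Cxcl10 probe passed 2-fold, so the size and sign of the difference depended on the probe and the call did not. Which transcripts each probe reads was not tested.

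Cxcl11, the third Cxcr3 ligand, is annotated as a transcribed pseudogene in the RefSeq genome of GRCm38.p6, and its probes also went apart. The brighter one, at chr5:92788567-92788626 of mm9, had an intensity of 144264 ± 14426 under LPS alone, 121166 ± 12117 after LOC1 and 125582 ± 12558 after LOC3. Its log2 differences of -0.14 and -0.10 were within the software error of 0.20 and larger in size than the technical SD of 0.061. They turned to 0.08 and 0.10 when the arrays were scaled by their medians. The dimmer one, close by at chr5:92788640-92788699, had 2585 ± 258, 1471 ± 147 and 1569 ± 157. It was lower on both treated arrays, by -0.70 with LOC1, or 1.63-fold, and by -0.62 with LOC3, or 1.53-fold.

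The sequence of the brighter Cxcl11 probe is shown in part because other probes of the array hold the same letters. Bases 15 to 44 of the 60 bases, in capitals because all of them belong to the repeated part, read as below and match the rodent B1 repeat, a short interspersed element found in many transcripts.
Cxcl11, brighter probe, bases 15 to 44: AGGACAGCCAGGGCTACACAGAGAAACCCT

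In all, 4 probes on the array held this stretch whole, and 6 probes of 6 other gene names shared a run of at least 20 bases with the Cxcl11 probe. These 6 were all well above background on every array, with median intensities of 166058, 143707 and 144488 for LPS, LOC1 and LOC3, against 21.8, 17.3 and 17.7 over all probes. The median of their differences from LPS was -0.11 for LOC1 and -0.13 for LOC3, next to -0.14 and -0.10 for the Cxcl11 probe. A run of 20 bases of that probe was also in 22 of the promoter windows, 0.067% of them. No other probe of a CXC chemokine shared 20 bases with a probe of another gene, and probes of different members shared at most 10 bases. The part of the repeat in the signal was not tested, and the dimmer probe is the one whose letters are not shared.

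Cxcl13, the B cell attractant, had an intensity of 254 ± 25.6 under LPS alone, 15.0 ± 3.73 after LOC1 and 78.4 ± 9.07 after LOC3 (chr5:96389861-96389920, mm9). It was lower on both treated arrays, and with LOC1 at a signal not well above background. The LOC1 signal was lower by at least 15.6-fold, a log2 difference of -3.96 with a software error of 0.39. The LOC3 signal was lower by 3.01-fold, a difference of -1.59 with a software error of 0.22. Of all genes compared, 6 had a lower difference with LOC1, where that of Cxcl13 is a bound, and 140 with LOC3. With normexp background correction the differences were -1.87 and -1.06, still past 2-fold. Of the markers of B cells, which respond to Cxcl13, Ms4a1 differed from LPS by 1.06 with LOC1 and by a bound of -0.44 with LOC3, and Cd79a was not well above background on any array.

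Cxcl16, the membrane-bound ligand, had an intensity of 9394 ± 939 under LPS alone, 5925 ± 592 after LOC1 and 6500 ± 650.05 after LOC3 by its brighter probe (chr11:70267780-70267839, mm9). Its other probe (chr11:70269481-70269540) had 7187 ± 719, 5448 ± 545 and 5468 ± 547. Both probes were lower with either strain, all under 2-fold. The log2 differences with LOC1 were -0.55 and -0.29, and with LOC3 -0.43 and -0.29, with a software error of 0.20.

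Cxcl14 was at the edge of detection. Its brighter probe, which spans 290 bases at chr13:56397748-56398037, had an intensity of 22.4 ± 4.62 under LPS alone, 22.8 ± 4.32 after LOC1 and 4.87 ± 4.91, not well above background, after LOC3. The log2 difference was 0.14 with LOC1, with a software error of 0.40, and the bound with LOC3 was at least 1.05-fold lower, which turned to a positive value of 0.13 when the arrays were scaled by their medians and of 0.12 under quantile normalization. Its other probe, at chr13:56390078-56390137, had 11.6, 3.35 and 18.7 and was not well above background on any array. No level of Cxcl14 can be ordered between the arrays from these signals.

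**Figure D4:**
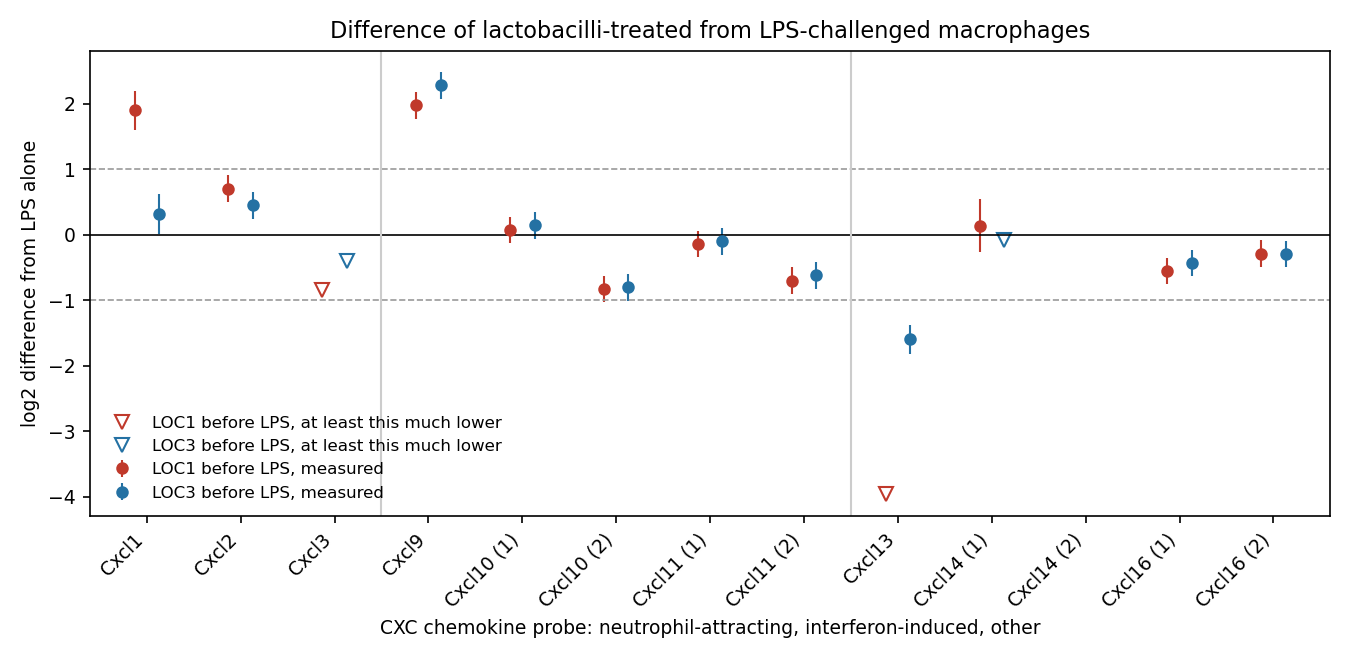
Log2 difference of each CXC chemokine probe from LPS alone, after LOC1 or LOC3, with the software error as bars for measured differences. Open triangles are bounds, dashed lines mark 2-fold, and the probe Cxcl14 (2) has no difference because no array measured it well above background. Cxcl9 lies above 2-fold with both strains, Cxcl1 only with LOC1, and Cxcl13 lies below with both.

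The neutrophil-attracting and interferon-induced groups were then set side by side, each with 3 genes. With LOC1 the median log2 difference was 0.70 for the neutrophil-attracting genes, 0.08 for the interferon-induced genes and -0.55 for the other members, against 0.0015 over all genes. With LOC3 the medians were 0.32, 0.15 and -0.43, against 0.033. Each of the first groups held 1 gene at least 2-fold higher with LOC1 and 0 lower, and with LOC3 the counts were 0 higher for the neutrophil-attracting and 1 higher for the interferon-induced genes. Over all genes 2.49% were higher and 3.81% lower with LOC1, and 2.98% and 3.18% with LOC3, and groups of 3 genes are too small to be set apart from these shares.

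Within the groups the members spread more widely than the medians. With LOC1 the neutrophil-attracting genes ran from at least 1.79-fold lower for Cxcl3 to 3.73-fold higher for Cxcl1, and the interferon-induced genes from -0.14 for Cxcl11 to 1.98 for Cxcl9 on the log2 scale by their brightest probes. The Cxcl11 value is that of the probe with the repeat, and the dimmer probes of Cxcl11 and Cxcl10 were lower, at -0.70 and -0.83. The gap between the medians, interferon-induced less neutrophil-attracting, was -0.63 with LOC1 and -0.18 with LOC3. The interferon-induced median is that of the brighter Cxcl10 probe, and when all detected probes of a gene were averaged it became -0.38 with LOC1 and -0.33 with LOC3, giving gaps of -1.08 and -0.65. When only genes well above background on both arrays were kept, which drops Cxcl3, the neutrophil-attracting median with LOC1 was 1.30. The medians of 3 genes therefore turn on 1 gene each.

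**Figure D5:**
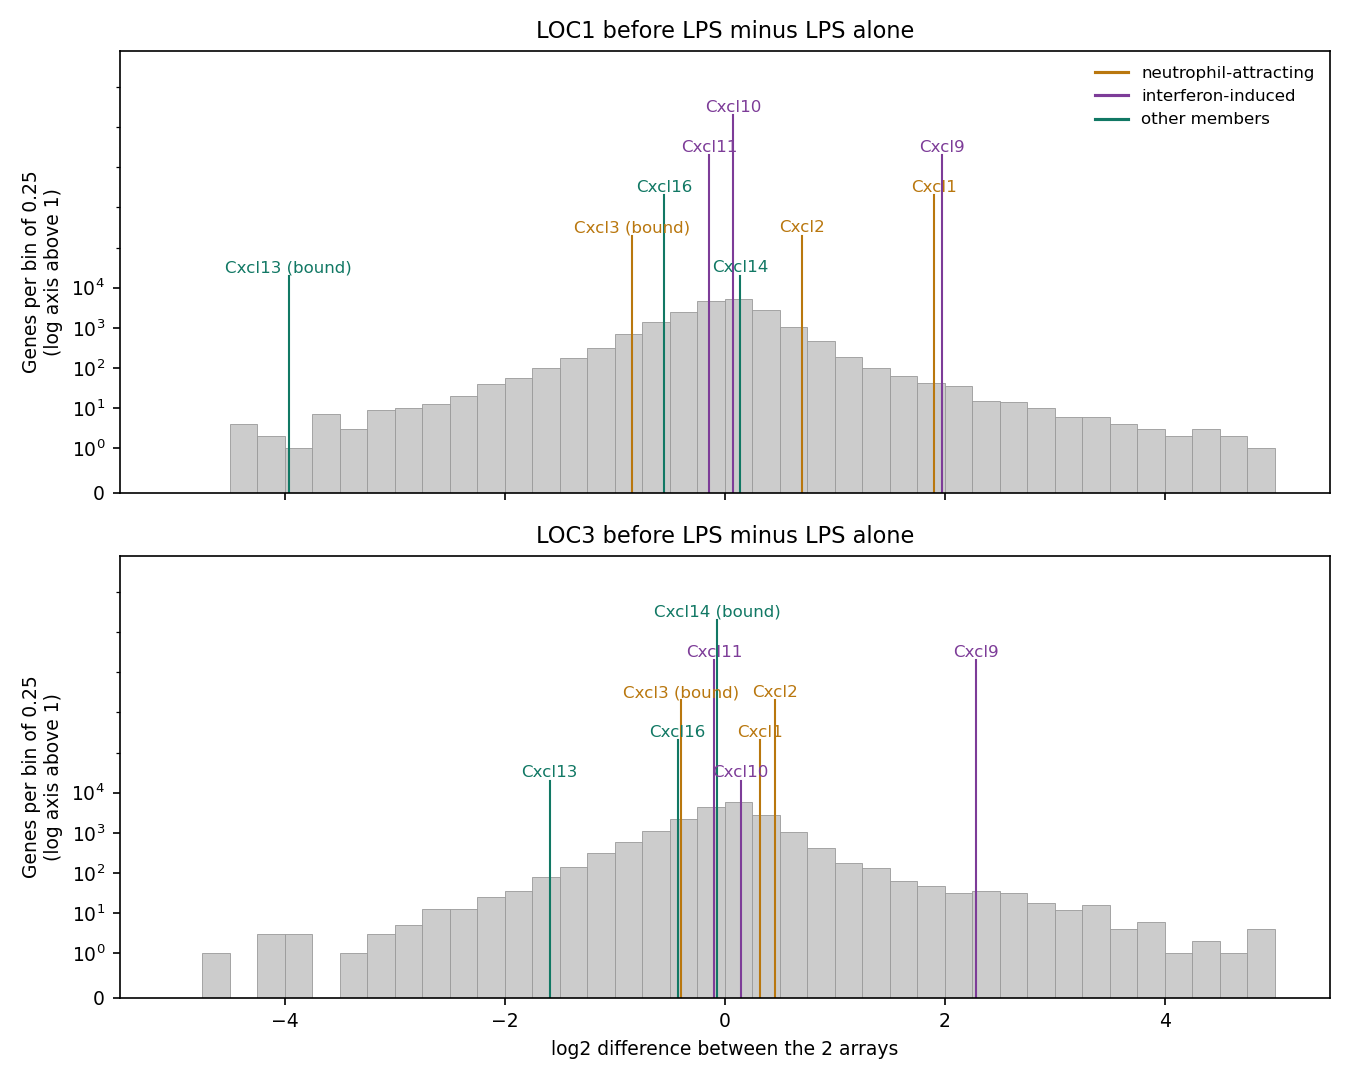
Number of genes per bin of log2 difference (grey, log axis above 1) with the CXC chemokines marked as lines by group, for LOC1 (20019 genes) and LOC3 (19790 genes) against LPS alone. The outermost bins also hold genes past 5. Cxcl13 and Cxcl9 lie in opposite tails with LOC1, most other members lie near the centre, and line heights carry no value.

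The 2 strains were compared directly, without the LPS array, for 8 members, since Cxcl3 was well above background on neither treated array. Cxcl1 was 2.99-fold higher with LOC1 than with LOC3, a log2 difference of 1.58 with a software error of 0.31, and 71 genes had a larger one. For Cxcl13 the LOC1 signal was at least 5.18-fold below that of LOC3, a bound of -2.37 in log2 with a software error of 0.39. By that bound, 111 genes had a lower difference. Over all 19382 genes compared, 0.8% were at least 2-fold higher with LOC1 and 1.83% lower. With normexp background correction these differences were 0.87 and -0.81, both under 2-fold. Cxcl9 at -0.31 and Cxcl2 at 0.25, with software errors of 0.20, lay within 2-fold, as did Cxcl16 at -0.12, while Cxcl14 had only a bound of at least 1.16-fold higher with LOC1. The brighter probes of Cxcl10 and Cxcl11 differed by -0.07 and -0.04, and the dimmer ones by -0.02 and -0.08, each under the software error of 0.20. The median was 0.91 for the neutrophil-attracting genes Cxcl1 and Cxcl2, -0.07 for the interferon-induced genes and -0.12 for the other members, against -0.015 over all genes.

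Genes that act with these chemokines were read from lists chosen by function. Of 6 other CXC ligands, Ppbp and Pf4, both known as platelet chemokines, were well above background, and Cxcl5, Cxcl12, Cxcl15 and Cxcl17 were not on any array. Ppbp had an intensity of 337 under LPS alone, 49.9 after LOC1 and 121 after LOC3, so it was 6.24-fold lower with LOC1 and 2.59-fold lower with LOC3. It was thus lowest with LOC1, as Cxcl13 was. Pf4 had 172872, 115122 and 134789, with log2 differences of -0.47 and -0.26.

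Of the 8 receptors, 4 were well above background and none passed 2-fold with either strain. Over all genes, 2.49% were higher and 3.81% lower with LOC1, and 2.98% and 3.18% with LOC3. No call among 4 genes is near these shares. Cxcr4, the receptor of Cxcl12, had an intensity of 25.2 under LPS alone, 41.8 after LOC1 and 37.7 after LOC3, and so differed from LPS by 0.84 and 0.69 in log2. Cxcr6, the receptor of Cxcl16, had 51.2, 37.0 and 24.8, differences of -0.35 and -0.94. Both signals were dim, and Cxcr1 and Cxcr2, on which neutrophil attraction depends, were not well above background on any array of these macrophages.

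All 12 genes of the interferon axis were well above background. By the brightest probe of each, Ifnb1, the gene of interferon-beta, was the only one past 2-fold. It had an intensity of 1251 under LPS alone, 29911 after LOC1 and 18122 after LOC3, so it was 25.8-fold and 15.6-fold higher. The smallest value of the axis with LOC1 was that of Irf8, a transcription factor of macrophages, at -0.68, with -0.39 for LOC3 and with -1.83 and -1.57 by its other detected probe. The median log2 difference of the axis was 0.06 with LOC1 and 0.10 with LOC3. Over all genes, 2.49% were at least 2-fold higher and 3.81% lower with LOC1, and 2.98% and 3.18% with LOC3. Ifnb1 and Cxcl9 were thus higher with both strains while Cxcl10 and Cxcl11 were not.

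None of the 11 genes of the TLR4 and NF-kB axis, the 5 genes of mRNA decay or the 3 genes of chemokine protein processing passed 2-fold with either strain by their brightest probe. With 2.49% of all genes higher and 3.81% lower with LOC1, 0 calls in lists of this size is near the share of all genes. In the NF-kB axis the LOC1 differences ran from -0.60 for Tnfaip3, which restrains NF-kB, to 0.51 for Rel, a subunit of NF-kB, with -0.36 and 0.62 for LOC3. Among the decay genes they ran from -0.49 for Zfp36, which destabilizes cytokine mRNAs, to 0.03 for Elavl1, which stabilizes them, with -0.21 and 0.05 for LOC3. Among the processing enzymes they ran from -0.53 for Adam17, a sheddase, to -0.04 for Dpp4, a protease that trims chemokines, with -0.47 and 0.00211 for LOC3. The median differences with LOC1 were -0.04, -0.19 and -0.36 for these 3 lists.

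For the 6 members well above background on all arrays by their brightest probe, the genes with the most similar pair of differences were sought among 17405 genes, by the Euclidean distance over the LOC1 and LOC3 differences from LPS. Cxcl9 was nearest to Arhgap27 at a distance of 0.135, Osbp2 at 0.204 and Gfi1b at 0.339, and only 1 gene lay within 0.2. Cxcl1 was nearest to Nme5, Scx and Skint10 at 0.181, 0.193 and 0.264, with 2 genes within 0.2. Cxcl2 had 640 genes within 0.2, Pate1 the nearest, and Cxcl16 had 1090, Naprt the nearest. Cxcl10 and Cxcl11, by their brighter probes, had 5179 and 4013. Few genes lay near Cxcl1 and Cxcl9, whose differences are far from 0 with 1 or both strains, and many lay near the other members.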

How the data were processed

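RNA of RAW264.7 macrophages (200 ng per array by the methods) was measured on 3 one-colour Agilent arrays, 1 per condition, on 1 slide and in 1 scan. The deposited intensity of each spot was background-corrected by the authors with Feature Extraction (12.0.3.1 per the file headers, while the methods name 10.7.3.1), with no scaling between arrays. The deposited log2 ratios were made by the authors in GeneSpring 13.1. For nearly all of 4909 probes their differences between arrays lay within 1.3448e-06 of those computed here, after a constant shift of 0.033, 0.037 and -0.0039. The submitters' processing notes also name limma and R 3.2.5, and the methods name a test between groups, which needs more than 1 array per condition and was not run.

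Outlier spots were left out, 135, 118 and 133 with LPS, LOC1 and LOC3, the 75th percentile over non-control spots was subtracted, and spots of a probe were averaged. A gene was compared by its brightest probe where either array measured it well above background. Python 3.11.15, numpy 2.4.6, pandas 2.3.3, matplotlib 3.10.9 and limma 3.58.1 (normexp, offset 50) in R 4.3.3 were used, after a test on simulated data. The members, groups, lists, markers and alternatives were chosen with earlier results of these data known. The B cell marker list is not reported here in full. All members are named. From each list of related genes, those past 2-fold with both strains and those with the largest and smallest LOC1 difference are named, and the genes with the nearest pattern by distance. Alternatives were median and quantile scaling, other bases of the percentile, normexp, other filters, averaged probes, outliers kept, a 3-fold threshold and the deposited ratios. Probe positions are of mm9 by the file headers, and promoters are RefSeq sequences of GRCm38.p6.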

Additional observations from a re-analysis of the deposited data

Results flagged for a closer look

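The brighter probe of Cxcl14 had a log2 difference from LPS of 0.14 with LOC1 and a bound of -0.071 with LOC3, values of opposite sign. The difference between the strains was not tested, there being 1 array per strain. The LOC1 value is under its software error of 0.40 and the LOC3 value turned positive under median and quantile scaling, so no opposite movement is shown.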

How the results depend on the processing

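Most values were the same in direction and size under the alternatives. With normexp background correction the members at least 2-fold higher with LOC1 went from 2 to 1, and in LOC1 against LOC3 those higher and those lower went from 1 to 0 each. Without filter and floor the members at least 2-fold lower were 2 with LOC1 and 2 with LOC3, those higher in LOC1 against LOC3 were 2, and there the neutrophil-attracting median was 0.25 and the gap -0.32. With genes well above background on both arrays the members lower were 0 with LOC1 and 0 in LOC1 against LOC3, the LOC1 neutrophil-attracting median was 1.30 and the gap -1.23. A 3-fold threshold gave 0 members higher in LOC1 against LOC3. Median scaling raised the LOC1 interferon-induced median to 0.30, and averaged probes gave -0.38 with LOC1 and -0.33 with LOC3, with gaps of -1.08 and -0.65. The LOC3 gap was 0.02 with normexp. The cause of these shifts was not tested, beyond the genes that a filter adds or removes.

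Over all genes, normexp gave 213 higher and 208 lower with LOC1, 252 and 158 with LOC3, and 42 and 111 for LOC1 against LOC3. No filter gave 1434 and 2405, 1649 and 2131, and 1181 and 1633, and the filter on both arrays gave 334 and 511, 296 and 416, and 37 and 68. The 75th percentile over probes each counted once, chosen after seeing the data, changed no member's call. No paired analysis was possible because each condition has 1 array. Signal over background limits Cxcl3, Cxcl13 and Cxcl14 on the treated arrays, and variation between cultures is not measured.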
